A study of Bos taurus with 29 samples.

Results

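The heat shock protein genes of cattle were followed from control skin through 5 clinical stages of digital dermatitis, an infectious dermatitis of the bovine foot. The genes were taken by symbol: those that start with HSPA, HSPB, HSPD, HSPE, HSPH, HSP90 or DNAJ and are listed in all 5 tables that set a lesion stage against control skin. The rule uses names and no measured values. It found 61 of the 10629 genes listed in all 5 tables: 11 HSPA genes, 3 HSP90 genes, 1 HSPH gene, HSPD1 and HSPE1, 6 small heat shock protein genes of the HSPB series, 36 DNAJ genes, and HSPBP1 with HSPBAP1, whose names begin alike. HSPBP1 encodes a nucleotide exchange factor of HSP70, HSPBAP1 a protein named for binding a small heat shock protein, and HSPB11 a subunit of the intraflagellar transport machinery, so the name pattern is wider than the class of chaperones. Counts of 58 of them were high enough to be tested, and HSPA1L, HSPB7 and HSPBAP1 were not.

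Skin biopsies of Holstein-Friesian cattle were sequenced from the 3′ ends of polyadenylated RNA (QuantSeq 3′ FWD), which gives about 1 read per transcript. Controls without lesions (M0, 5 libraries) were skin from above the interdigital cleft. Lesion sites were scored, in the usual clinical meaning of the scheme, as early (M1, 5 libraries), acute ulcerated (M2, 5), healing (M3, 5), chronic (M4, 5) or chronic with a renewed lesion (M4.1, 4). Per the study's design text, 22 lesion samples came from 6 dairy farms, while all 5 controls, together with 2 M1 samples, were collected post mortem in a slaughterhouse, and the labels do not single out those M1 libraries. Disease, body site and place of sampling therefore cannot be told apart in a comparison with M0, and no label names the animal behind a library.

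Heat shock proteins keep other proteins folded. HSP70 proteins (HSPA) bind exposed hydrophobic stretches in a cycle of ATP hydrolysis that J proteins (DNAJ) start and that HSP110 proteins and other exchange factors end. HSP90 takes over clients such as kinases and steroid receptors, HSP60 with HSP10 (HSPD1 with HSPE1) folds proteins inside mitochondria, and small heat shock proteins (HSPB) hold unfolding proteins without ATP. Each compartment has its own set, and in skin HSPB1 is known as an abundant protein of the differentiating epidermis.

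Library totals ran from 2858186 to 5399615 counts. Values below are CPM, that is counts per 1000000 of a library total scaled by its TMM factor, and a gene was called where the quasi-likelihood test of edgeR gave an adjusted p under 0.05 over all 10371 genes tested. The tissue carried epidermal genes in every group, and the makeup of the biopsies differed. Of 8 basal keratinocyte markers, 2 to 4 were higher and 2 to 3 lower in a stage (list median log2 0.07 to 0.37). KRT5 and KRT14, the most abundant of them, were higher and KRT15 and DST lower in every stage, so that the summed CPM of the list ran from 26124 to 55772 in lesion libraries, against 8550.4 to 11594 in M0. Of 9 leukocyte markers, 4 were higher in M1, M2 and M4.1, 3 in M3 and 2 in M4, where JCHAIN was lower. The list median was -0.33 on the log2 scale in M4 and above 0 in the other stages. Their sum of 7756 to 35393 CPM in lesions, against 333 to 2433 in M0, came mostly from S100A8 and S100A9, which inflamed keratinocytes also express. The 9 hair follicle and sebaceous gland markers summed to 0.399 to 543 CPM in lesions, against 3705 to 4085 in M0, with KRT28 and KRT31 at 0 in M3 and KRT28 and KRT35 at 0 in M4. In such bulk samples fewer cells of a type and less RNA per cell cannot be told apart, and the part that these differences in makeup have in the results below was not tested.

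Genes that rose in lesions included the constitutive HSP70 gene HSPA8 and the HSP110 genes. HSPA5 and HSP90B1 of the endoplasmic reticulum rose as well, and so did the mitochondrial chaperonin pair in all stages but M4, where HSPE1 alone passed. The small heat shock protein genes differed from one another, and HSPB6 fell in each stage. All 61 genes together summed to 6576 ± 258 CPM in M0, 10421 ± 225 in M1, 9959.9 ± 899 in M2, 9907 ± 658 in M3, 10352 ± 728 in M4 and 10320.3 ± 769 in M4.1 (SD). In M1, 20 of the 58 tested genes rose and 6 fell, where 21.9% of all genes rose and 21.1% fell, 43.0% in all. In M2, 20 rose and 7 fell (all genes 21.7% and 20.5%, 42.2% in all). In M3, 21 rose and 7 fell (all genes 20.4% and 19%, 39.4% in all). In M4, 22 rose and 9 fell (all genes 21.3% and 21.1%, 42.4% in all). In M4.1, 20 rose and 8 fell (all genes 20.2% and 18.9%, 39.2% in all). Called chaperone genes were 44.8% of those tested in M1 and 53.4% in M4, the lowest and highest of the 5 stages, a little above the share of all genes, and more of them were higher than lower. Without the TMM factors that excess was smaller in M1, M2 and M4.1 and absent in M3 and M4. Calls over all genes turned lower as well. With libraries scaled by their totals alone, 15 were higher and 11 lower in M1 (all genes 11.4% and 30.6%), 13 and 13 in M3 (9.47% and 30.4%), and 6 and 19 in M4 (7.26% and 45.7%). M2 had 18 and 8 (13.5% and 25.2%) and M4.1 17 and 8 (13.1% and 21.2%). The median log2 fold change of the 58 was then -0.06 in M1, 0.04 in M2, -0.17 in M3, -0.32 in M4 and 0.03 in M4.1. Over all genes it was -0.28, -0.19, -0.32, -0.58 and -0.14 in the same order. With the TMM factors the median log2 fold change of the 58 was 0.13 to 0.25 over the 5 comparisons, beside medians of all genes between -0.025 and -0.004.

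The 5 comparisons share the M0 libraries, so their calls are not independent. In all 5 stages 17 of the 58 genes were higher (13.1% of all genes were), 5 were lower (11.5% of all genes) and 21 were called in none (38.4% of all genes). The 17 were HSPA4, HSPA4L, HSPA5, HSPA8, HSPH1, HSP90AA1, HSP90B1, HSPE1, DNAJA1, DNAJB1, DNAJB6, DNAJB11, DNAJC3, DNAJC5, DNAJC7, DNAJC15 and DNAJC25. Of all 58 genes, 5 were higher in all 5 stages with library totals alone, namely HSPA4L, HSPA8, DNAJA1, DNAJB1 and DNAJB6. The 5 lower ones were HSPB6, DNAJA4, DNAJB2, DNAJC12 and DNAJC19. By family, 5 of 10 tested HSPA genes rose in every stage but M4, where 4 did, and none fell. The HSP90 family had 2 of 3 genes higher in each stage. Among 9 DNAJB genes 3 in M1, 3 in M2, 4 in M3, 4 in M4 and 3 in M4.1 rose. Among 23 DNAJC genes 5 in M1, 5 in M2, 5 in M3, 6 in M4 and 5 in M4.1 rose, and 3 in M1, 3 in M2, 3 in M3, 4 in M4 and 3 in M4.1 fell.

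**Figure D1:**
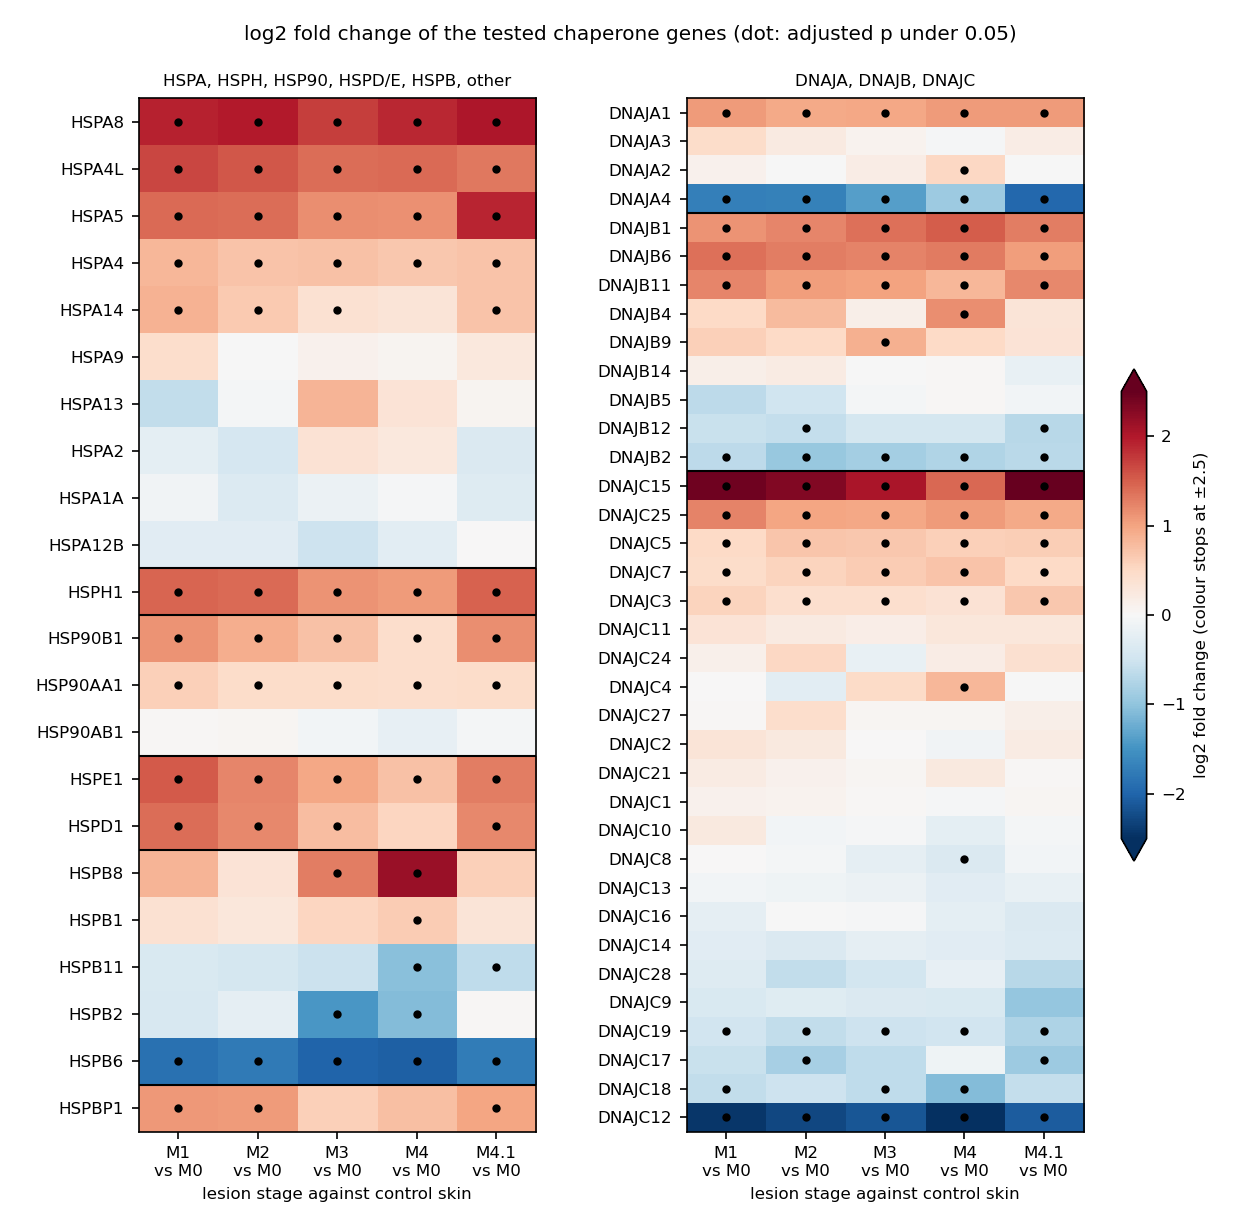
Log2 fold changes of the 58 tested genes in each lesion stage against M0, grouped by family and ordered by their mean within it. Colour runs from blue (lower in lesions) to red (higher in lesions) and stops at ±2.5, and a dot marks an adjusted p under 0.05. HSPA8, HSPA5, HSPA4L, HSPH1 and DNAJC15 are red in every column, while HSPB6, DNAJA4 and DNAJC12 are blue in every column.

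The cytosolic HSP70 genes differed from one another, and HSPA2 was called in no stage. HSPA8, the constitutive HSP70 that serves folding, clathrin uncoating and chaperone-mediated autophagy, rose in every stage, whereas HSPA1A, the strongly heat-inducible HSP70, was not called in any. HSPA8 (ENSBTAG00000013162) had 584, 504, 339, 546 and 612 CPM in M0, 2186, 2106, 2084, 1502 and 1969.9 in M1, and 2119, 2468, 1922, 1936 and 1713 in M2. In the later stages it had 1808, 1861, 1619, 1525 and 1745 CPM in M3, 1453, 2142, 1418, 2907 and 1604 in M4, and 1585, 2556, 1867 and 2345 in M4.1. All 24 lesion libraries lay above the highest M0 library, at 1418 to 2907 CPM against 339 to 612 CPM. The log2 fold changes of HSPA8 (± SE) were 1.93 ± 0.19 in M1, 1.97 ± 0.19 in M2, 1.73 ± 0.18 in M3, 1.88 ± 0.19 in M4 and 2.01 ± 0.19 in M4.1 (adjusted p 3.2e-09 to 2.8e-08, edgeR).

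HSPA1A behaved differently in the same libraries. HSPA1A (ENSBTAG00000025441) had 151, 118, 91.1, 102 and 135 CPM in M0, 90.4, 145, 131, 102 and 94.2 in M1, and 66.3, 92.7, 64.7, 100.4 and 149 in M2. Its later values were 143, 67.2, 68.4, 128 and 136 CPM in M3, 194, 98.2, 112, 100.2 and 78.6 in M4, and 101, 123, 87.0 and 68.5 in M4.1. The groups overlapped throughout, with 1 of 24 lesion libraries above and 8 below the M0 range. Its log2 fold changes were -0.09 ± 0.26 in M1, -0.34 ± 0.26 in M2, -0.14 ± 0.26 in M3, -0.04 ± 0.26 in M4 and -0.33 ± 0.27 in M4.1 (adjusted p 0.30 to 0.92, edgeR). With libraries scaled by their totals alone, HSPA1A was called lower in M4 (-0.66, adjusted p 0.022). Within a library the ratio of 2 genes does not depend on scaling, and it is read here only for how it differs between groups. The log2 ratio of HSPA8 to HSPA1A averaged 4.14 ± 0.33 in M1 and 4.48 ± 0.61 in M2, against 2.11 ± 0.21 in M0 (SD). The ratio stood 1.94 to 2.37 above M0 over the 5 stages. The exact two-sided permutation p was 0.0079 in M1 to M4 and 0.016 in M4.1, the smallest that these group sizes allow (adjusted over 20 ratio tests 0.016 and 0.024). The 4 ratios tested were chosen after the values of their genes were seen. HSPA1A and its neighbour HSPA1L are close paralogs, so their reads may be split between them. HSPA1L, a gene best known from testis, had at most 3.94 CPM in any library.

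**Figure D2:**
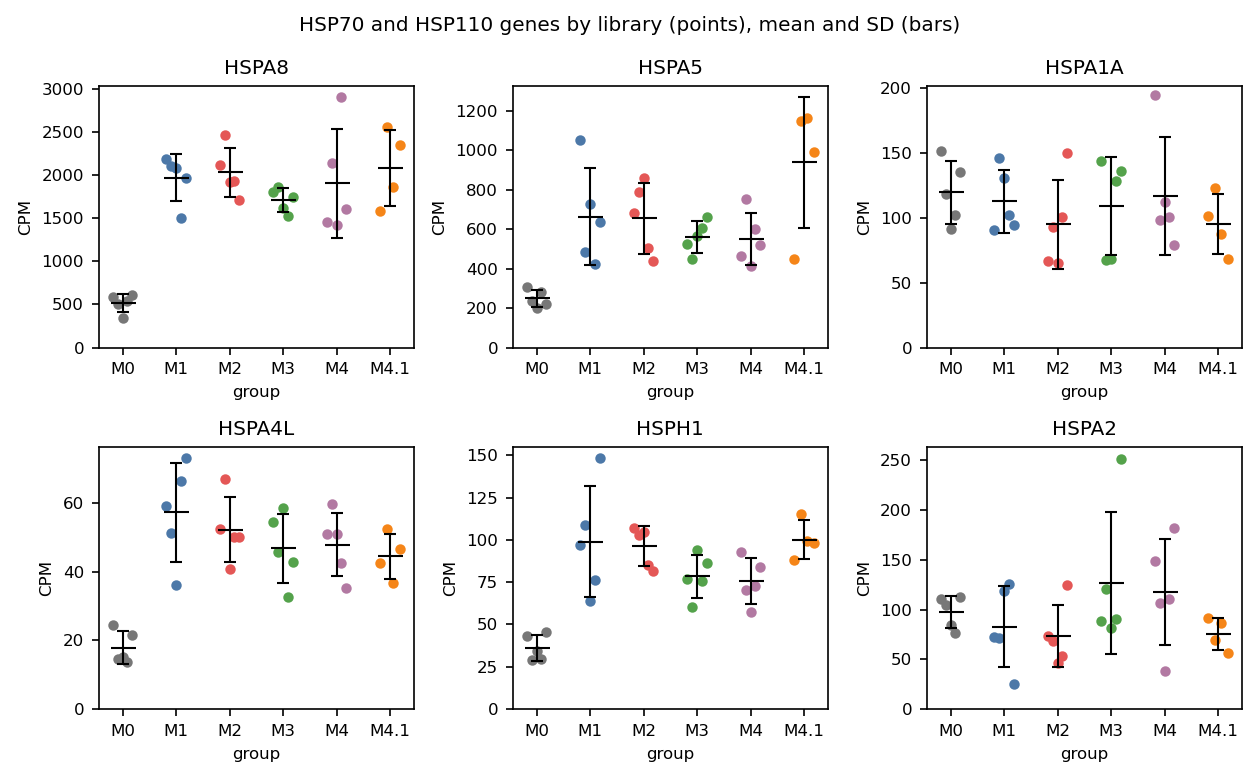
CPM of 6 HSP70 and HSP110 genes in every library (points), with the mean and SD of each group (bars), in M0 and the 5 lesion stages. HSPA8, HSPA5, HSPA4L and HSPH1 have every lesion library above the M0 libraries, while HSPA1A and HSPA2 overlap M0 in every stage.

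All 3 genes of the HSP110 class, which releases ADP from HSP70 and so lets clients go, rose in each stage. HSPH1 (ENSBTAG00000005012), its stress-responsive member, had 43.4, 28.8, 34.3, 29.4 and 45.5 CPM in M0, 97.2, 109, 64.0, 76.3 and 149 in M1, and 107, 103, 105, 85.1 and 81.9 in M2. The later stages held 76.9, 60.1, 94.0, 75.5 and 86.3 CPM in M3, 93.1, 70.3, 57.5, 72.8 and 84.0 in M4, and 87.9, 115, 99.3 and 98.4 in M4.1. No lesion library overlapped M0, and the log2 fold changes of HSPH1 were 1.45 ± 0.18 in M1, 1.41 ± 0.18 in M2, 1.11 ± 0.18 in M3, 1.06 ± 0.18 in M4 and 1.47 ± 0.19 in M4.1 (adjusted p 4.5e-07 to 3.8e-05, edgeR). HSPA4L (ENSBTAG00000015692) averaged 17.9 ± 4.84 CPM in M0, 57.3 ± 14.3 in M1, 52.2 ± 9.47 in M2, 46.9 ± 10.1 in M3, 48.0 ± 9.29 in M4 and 44.6 ± 6.58 in M4.1 (SD). Again all 24 lesion libraries were above the M0 range. Its log2 fold changes were 1.31 to 1.68 (adjusted p 1.5e-07 to 1.3e-05), and those of HSPA4, the third member, 0.67 to 0.82 (adjusted p 7.1e-05 to 7.3e-04, both edgeR).

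Of the remaining HSPA genes, HSPA14 was called in 4 stages and the others in none. HSPA14, which works at the ribosome with the J protein DNAJC2, rose in M1 (0.88 ± 0.14), M2 (0.65 ± 0.14), M3 (0.39 ± 0.14) and M4.1 (0.71 ± 0.14), and had 0.32 ± 0.14 in M4 (adjusted p 0.065, edgeR). Its M3 call ended without M3 replicate 1 or 3 or M0 replicate 1, 2 or 5 (0.29 to 0.37, adjusted p 0.052 to 0.12). HSPA9, the mitochondrial HSP70, was not called in any stage, with log2 fold changes of -0.01 to 0.44. HSPA2, known for its role in testis and also found in keratinocytes, was not called and spread widely: in M3 its libraries ran from 81.2 to 252 CPM, against 76.9 to 113 CPM in M0. HSPA12B, an endothelial member, and HSPA13, a microsomal member, were not called in any stage.

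Of the cytosolic HSP90 pair, the inducible HSP90AA1 was the higher one in lesions and the constitutive HSP90AB1 was not called. HSP90AA1 (ENSBTAG00000006270) had 1234, 1187, 1214, 1104 and 1065 CPM in M0, 1880.3, 1517, 1486, 1775 and 2119.5 in M1, and 1778, 1772, 1656, 1460.0 and 1346 in M2. In the others it had 1382, 1790.1, 1929, 1319 and 1515 CPM in M3, 1431, 1741, 1631, 1466 and 1633 in M4, and 1615, 1404, 1630.3 and 1705 in M4.1. Every lesion library exceeded every M0 library, although the step was small next to that of HSPA8. Its log2 fold changes were 0.60 ± 0.12 in M1, 0.47 ± 0.12 in M2, 0.45 ± 0.12 in M3, 0.45 ± 0.12 in M4 and 0.45 ± 0.12 in M4.1 (adjusted p 1.9e-04 to 0.0051, edgeR). These calls rested on the scaling. With library totals alone, all 5 were lost and M4 had -0.10. That scaling moved the median over all genes to -0.28 in M1, -0.19 in M2, -0.32 in M3, -0.58 in M4 and -0.14 in M4.1. In M4 that scaling ended 16 calls. Besides HSP90AA1, HSP90B1 and DNAJC3, these were HSPA4 (0.13, adjusted p 0.62), HSPA5 (0.60, adjusted p 0.080), HSPH1 (0.48, adjusted p 0.078), HSPE1 (0.20, adjusted p 0.54) and HSPB1 (0.035, adjusted p 0.87) outside the DNAJ family. Within it they were DNAJA2 (-0.076, adjusted p 0.66), DNAJB4 (0.57, adjusted p 0.18), DNAJB11 (0.26, adjusted p 0.34) and DNAJC4 (0.26, adjusted p 0.33), together with DNAJC5 (0.045, adjusted p 0.79), DNAJC7 (0.16, adjusted p 0.40), DNAJC15 (0.89, adjusted p 0.10) and DNAJC25 (0.48, adjusted p 0.13). It called 10 further genes lower in M4 that were not called with the TMM factors. In M3 it ended 8 calls, those of HSP90AA1, DNAJB9 and DNAJC3 among them, with HSP90B1 (0.41, adjusted p 0.16), HSPD1 (0.50, adjusted p 0.19), HSPA4 (0.43, adjusted p 0.12), HSPA14 (0.095, adjusted p 0.70) and DNAJC7 (0.33, adjusted p 0.084). In M1 it ended 5, including HSPBP1 (0.84, adjusted p 0.062), DNAJC5 (0.23, adjusted p 0.15) and DNAJC7 (0.21, adjusted p 0.29), and in M4.1 3, including HSPBP1 (0.86, adjusted p 0.079) and DNAJC7 (0.36, adjusted p 0.082). Every one of these values stayed above the shifted median of its stage. The shift is nearly the same for all genes, so this had to follow and adds no evidence for the calls.

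HSP90AB1 (ENSBTAG00000000778) had 1302, 1451, 1281, 1279 and 1198 CPM in M0, 1186, 1316, 1032, 1489 and 1653 in M1, and 1425, 1379, 1541, 1328 and 1089 in M2. Later stages had 1213, 1229.9, 1653, 1089 and 998 CPM in M3, 918, 1367, 1233, 1204 and 933 in M4, and 1198, 1195, 1239 and 1416 in M4.1. The groups overlapped, and its log2 fold changes were 0.04 ± 0.14 in M1, 0.05 ± 0.14 in M2, -0.07 ± 0.14 in M3, -0.20 ± 0.14 in M4 and -0.05 ± 0.15 in M4.1 (adjusted p 0.26 to 0.86, edgeR). It was called lower in M4 under library totals alone (-0.74, adjusted p 0.0053). The log2 ratio of HSP90AA1 to HSP90AB1, which no scaling touches, averaged 0.40 ± 0.19 in M1, 0.25 ± 0.12 in M2, 0.37 ± 0.19 in M3, 0.50 ± 0.22 in M4 and 0.33 ± 0.10 in M4.1, against -0.17 ± 0.09 in M0 (SD). In each stage the ratio was above M0 in every library, by 0.41 to 0.66 on average (exact two-sided permutation p = 0.0079, in M4.1 0.016, adjusted 0.016 and 0.024). HSP90AA1 and HSP90AB1 are near-identical in long stretches, and how reads shared by both were divided could move this ratio.

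**Figure D3:**
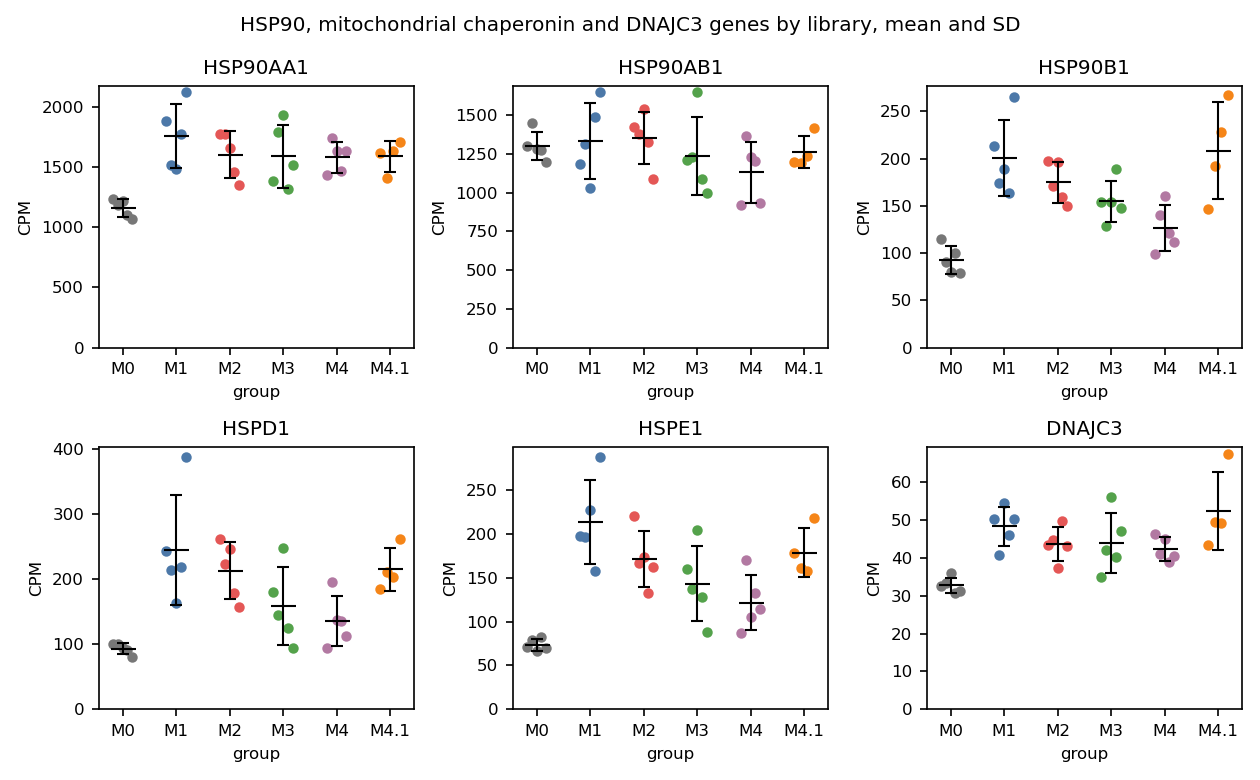
CPM of the 3 HSP90 genes, the mitochondrial chaperonin genes HSPD1 and HSPE1, and DNAJC3 in every library (points), with group means and SD (bars), in M0 and the 5 lesion stages. HSP90AA1 and HSPE1 lie above M0 in all 24 lesion libraries, HSP90AB1 overlaps M0 in every stage, and HSP90B1 and HSPD1 are lowest in M4 among the lesion stages.

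The HSP70 and the HSP90 of the endoplasmic reticulum both rose in each stage. HSPA5 (ENSBTAG00000007662), or BiP, the HSP70 of that compartment and the sensor partner of the unfolded protein response, had 306, 235, 202, 283 and 220.1 CPM in M0, 1048, 484, 725, 424 and 637 in M1, and 681, 788, 859.7, 503 and 439 in M2. Its M3 to M4.1 libraries had 525, 447, 566, 604 and 661 CPM in M3, 461, 752, 415, 599 and 519.7 in M4, and 451, 1145, 1165 and 988 in M4.1. All lesion libraries lay above M0, at 415 to 1165 CPM against 202 to 306 CPM, and 3 of the 4 M4.1 libraries exceeded all other lesion libraries but M1 replicate 1. The log2 fold changes were 1.41 ± 0.25 in M1, 1.39 ± 0.25 in M2, 1.17 ± 0.24 in M3, 1.14 ± 0.24 in M4 and 1.91 ± 0.26 in M4.1 (adjusted p 1.5e-06 to 4.4e-04, edgeR).

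HSP90B1 (ENSBTAG00000003362), or GRP94, the HSP90 of the endoplasmic reticulum, had 114, 90.8, 79.9, 99.6 and 78.6 CPM in M0, 213, 174, 189, 164 and 265 in M1, and 197, 171, 196, 159.7 and 149.6 in M2. Thereafter it had 155, 128, 154, 189 and 147 CPM in M3, 98.6, 140.3, 160.2, 122 and 112 in M4, and 146, 192, 228 and 267 in M4.1. In 22 of 24 lesion libraries it exceeded the M0 range, and the exceptions were M4 libraries. Its log2 fold changes were 1.12 ± 0.16 in M1, 0.91 ± 0.16 in M2, 0.74 ± 0.16 in M3, 0.45 ± 0.16 in M4 and 1.17 ± 0.17 in M4.1 (adjusted p 3.5e-06 to 0.027, edgeR). The call in M4 ended on leaving out M0 replicate 2, 3 or 5 or M4 replicate 2 or 3 (0.35 to 0.42, adjusted p 0.062 to 0.098), and with library totals alone its value was -0.10. The within-library log2 ratio of HSPA5 to HSP90B1 was 0.44 above M0 in M2 (adjusted p 0.016), 0.43 above M0 in M3 (adjusted p 0.016) and 0.68 above M0 in M4.1 (adjusted p 0.024) by exact permutation. It did not pass in M1, at 0.25 above M0 (adjusted p 0.43), or in M4, at 0.68 above M0 (adjusted p 0.057), a difference as large as that of M4.1. The lowest M4 library lay within the M0 range of this ratio.

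The J proteins of the endoplasmic reticulum were divided. DNAJB11, which helps BiP on newly made secretory proteins, averaged 18.5 ± 3.44 CPM in M0, 43.0 ± 12.1 in M1, 38.3 ± 6.64 in M2, 37.2 ± 7.90 in M3, 32.7 ± 3.71 in M4 and 42.5 ± 5.88 in M4.1 (SD). It rose in each stage (log2 0.82 to 1.21, adjusted p 3.8e-06 to 5.3e-04, edgeR). DNAJC3, a BiP partner that also restrains the kinase PERK, rose by 0.37 to 0.68 (adjusted p 1.5e-04 to 0.018). Its M3 call ended without M3 replicate 3 (0.30, adjusted p 0.060) and its M4 call without M0 replicate 4 or 5 (0.32 to 0.33, adjusted p 0.056 to 0.065). With library totals alone no stage but M4.1 was called and it had -0.19 in M4. DNAJB9, a BiP partner that keeps the sensor IRE1 quiet, passed only in M3 (0.89 ± 0.26, adjusted p 0.0074), where its libraries ran from 14.7 to 47.1 CPM, and lost that call with library totals alone (0.51, adjusted p 0.094). In the other stages DNAJB9 had 0.60 ± 0.26 in M1, 0.50 ± 0.26 in M2, 0.50 ± 0.26 in M4 and 0.35 ± 0.27 in M4.1, and no test set M3 apart from them: M3 vs M2 gave 0.39 ± 0.26 (adjusted p 0.64). DNAJC10, a J protein with disulfide reductase activity, and DNAJC1 were not called in any stage.

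The mitochondrial chaperonin genes rose as a pair. HSPD1 encodes HSP60 and HSPE1 its lid HSP10, and RefSeq lists them as neighbours in the cattle assembly ARS-UCD2.0. HSPD1 (ENSBTAG00000012586) had 99.99, 100.1, 94.7, 90.6 and 79.6 CPM in M0, 243, 214, 163, 218 and 387 in M1, and 261, 223, 246, 178 and 157 in M2. It then had 181, 144, 248, 124 and 93.2 CPM in M3, 94.3, 196, 137, 136 and 112 in M4, and 184, 210.2, 203 and 261 in M4.1. M1, M2 and M4.1 did not overlap M0, whereas 1 M3 and 1 M4 library fell within it. The log2 fold changes of HSPD1 were 1.398 ± 0.23 in M1, 1.195 ± 0.23 in M2, 0.77 ± 0.23 in M3, 0.54 ± 0.23 in M4 and 1.21 ± 0.24 in M4.1, called in all stages but M4 (adjusted p 0.058, edgeR). The M3 call ended without M3 replicate 3 (0.53, adjusted p 0.062). HSPE1 (ENSBTAG00000012589) averaged 73.7 ± 6.76 CPM in M0, 214 ± 48.2 CPM in M1, 171 ± 31.7 CPM in M2, 143 ± 42.9 CPM in M3, 122 ± 31.6 CPM in M4 and 179 ± 27.7 CPM in M4.1 (SD). All 24 lesion libraries were above M0, and its log2 fold changes were 1.54 ± 0.19 in M1, 1.22 ± 0.19 in M2, 0.96 ± 0.19 in M3, 0.72 ± 0.19 in M4 and 1.28 ± 0.20 in M4.1 (adjusted p 4.0e-07 to 0.0032, edgeR). The within-library log2 ratio of HSPD1 to HSPE1 differed from M0 by -0.22 to -0.03, with no p under the threshold (exact permutation, adjusted p 0.074 to 0.84). Of other mitochondrial helpers, HSPA9 and DNAJA3, its J partner, were not called, and DNAJC19, a J protein of the inner membrane, fell in each stage (log2 -0.77 to -0.49, adjusted p 2.0e-05 to 0.0013, edgeR).

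Among J proteins of the cytosol, DNAJB1, the classical heat-inducible HSP40, rose in each stage. DNAJB1 (ENSBTAG00000016874) had 63.9, 60.1, 48.0, 51.2 and 70.5 CPM in M0, 159, 135, 133, 132 and 83.6 in M1, and 154, 145, 162, 107 and 117 in M2. The remaining libraries had 162, 179.9, 115, 175 and 137 CPM in M3, 125, 209, 117, 239 and 153 in M4, and 118, 139, 150.1 and 165 in M4.1. No lesion library overlapped M0, and the lowest of them was M1 replicate 5. The log2 fold changes were 1.13 ± 0.19 in M1, 1.22 ± 0.19 in M2, 1.39 ± 0.19 in M3, 1.52 ± 0.19 in M4 and 1.28 ± 0.20 in M4.1 (adjusted p 3.7e-07 to 2.4e-05, edgeR). DNAJB6, a J protein that suppresses aggregation, rose by 1.05 to 1.37 (adjusted p 2.7e-08 to 5.4e-06), and DNAJA1, a farnesylated partner of HSPA8, by 0.94 to 1.07 (adjusted p 1.9e-05 to 1.0e-04). DNAJC7, which links HSP70 to HSP90, rose by 0.47 to 0.72, and DNAJC5, the cysteine string protein of vesicles, by 0.49 to 0.69. DNAJB2, a J protein with ubiquitin-binding motifs that is best known from neurons, fell by 0.65 in M1, 0.96 in M2, 0.84 in M3, 0.76 in M4 and 0.68 in M4.1 (adjusted p 0.0013 to 0.026, edgeR). Its M1 call ended without M1 replicate 2 or 5 or M0 replicate 3 (-0.58 to -0.56, adjusted p 0.055 to 0.065). Its M4.1 call ended without M4.1 replicate 2, 3 or 4 or M0 replicate 3 (-0.66 to -0.55, adjusted p 0.060 to 0.099).

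DNAJA4, a cytosolic J protein, fell below M0 in every lesion library. DNAJA4 (ENSBTAG00000015942) had 30.3, 32.6, 33.4, 31.2 and 38.1 CPM in M0, 10.5, 10.7, 9.51, 7.88 and 11.6 in M1, and 7.93, 9.77, 10.1, 7.83 and 16.02 in M2. For the later stages the values were 7.78, 15.02, 8.94, 18.05 and 15.2 CPM in M3, 25.6, 11.1, 20.03, 13.8 and 17.8 in M4, and 11.1, 9.27, 7.10 and 6.78 in M4.1. The M4 libraries came nearest to M0 without overlapping it. The log2 fold changes of DNAJA4 were -1.71 ± 0.23 in M1, -1.69 ± 0.23 in M2, -1.37 ± 0.23 in M3, -0.92 ± 0.22 in M4 and -1.96 ± 0.25 in M4.1 (adjusted p 6.2e-07 to 0.0014, edgeR). DNAJC12, a partner of the aromatic amino acid hydroxylases, fell furthest: the 24 lesion libraries had 0 to 6.91 CPM, against 10.7 to 27.4 CPM in M0, and did not overlap it, with 1 M4 library at 0. Its log2 fold changes were -2.44 ± 0.47 in M1, -2.28 ± 0.46 in M2, -2.15 ± 0.46 in M3, -3.25 ± 0.51 in M4 and -2.08 ± 0.49 in M4.1 (adjusted p 9.3e-06 to 0.0013, edgeR). Of the 8 sweat gland and simple epithelium markers tested, 7 were lower and 1 higher in each stage, and all 9 hair follicle and sebaceous gland markers were lower in each. In M4, where DNAJA4 was nearest to M0, the follicle list summed to 0.399 to 7.48 CPM. In M4.1, where DNAJA4 was lowest, the list summed to 4.45 to 543 CPM. These ranges overlap, and both lie far below the 3705 to 4085 CPM of M0. DNAJC12 was furthest below M0 in M4 and nearest to it in M4.1. The part of these markers in the falls was not tested.

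DNAJC15 (ENSBTAG00000034785), a J protein of the inner mitochondrial membrane that damps respiratory complex I in mice, moved the other way from low counts. It had 4.04, 1.34, 1.66, 0.754 and 1.61 CPM in M0, 7.25, 12.8, 12.8, 9.77 and 9.18 in M1, and 11.2, 11.01, 8.42, 9.32 and 7.25 in M2. The later libraries had 11.9, 9.83, 7.97, 6.26 and 2.31 CPM in M3, 2.796, 6.01, 7.22, 5.89 and 3.68 in M4, and 6.98, 8.69, 10.3 and 22.5 in M4.1. In 21 of 24 lesion libraries DNAJC15 exceeded the M0 range, and the exceptions were 1 M3 and 2 M4 libraries. Its log2 fold changes were 2.43 ± 0.39 in M1, 2.31 ± 0.39 in M2, 2.04 ± 0.40 in M3, 1.43 ± 0.41 in M4 and 2.66 ± 0.40 in M4.1 (adjusted p 7.3e-06 to 0.0060, edgeR). DNAJC25 rose by 0.94 to 1.24 (adjusted p 3.7e-05 to 0.0016). DNAJB4, another HSP40, was called in M4 only (1.16 ± 0.36, adjusted p 0.011), at 2.95 to 9.19 CPM, and lost the call without M4 replicate 1 (0.89, adjusted p 0.054). The same call ended with library totals alone (0.57, adjusted p 0.18).

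The remaining J protein genes with a call had it in 1 to 3 stages. DNAJC18, a membrane-bound member, fell in M1 (-0.61 ± 0.23), M3 (-0.64 ± 0.24) and M4 (-1.09 ± 0.24, adjusted p 7.4e-04). DNAJC17, linked to splicing, fell in M2 (-0.83 ± 0.32) and M4.1 (-0.90 ± 0.34), and DNAJB12, a membrane protein of the endoplasmic reticulum, fell in the same stages (-0.60 ± 0.24 and -0.70 ± 0.26). In M4 alone, DNAJC8, a spliceosome-associated protein, fell (-0.35 ± 0.14, adjusted p 0.040), while DNAJA2, a cytosolic partner of HSPA8, rose (0.52 ± 0.17, adjusted p 0.016) and so did DNAJC4 (0.84 ± 0.27, adjusted p 0.012, all edgeR). All of these but the M4 calls of DNAJC18 and DNAJC4 ended when a single library was left out, and that of DNAJC4 ended with library totals alone. DNAJC18 lost its M1 call without M1 replicate 1, 3 or 5 or M0 replicate 2 or 5 (-0.59 to -0.51, adjusted p 0.060 to 0.097). The M3 call of DNAJC18 ended without M3 replicate 2, 3 or 5 or M0 replicate 2 or 5 (-0.63 to -0.51, adjusted p 0.054 to 0.10). DNAJC17 lost its M2 call without M2 replicate 1, 2, 3 or 4 or M0 replicate 3 (-0.78 to -0.68, adjusted p 0.075 to 0.10). The M4.1 call of DNAJC17 ended without M4.1 replicate 1, 3 or 4 or M0 replicate 3 (-0.84 to -0.75, adjusted p 0.080 to 0.10). DNAJB12 lost its M2 call without M2 replicate 1, 2, 3 or 4 or M0 replicate 1, 2 or 4 (-0.61 to -0.54, adjusted p 0.057 to 0.088). The M4.1 call of DNAJB12 ended without M4.1 replicate 2, 3 or 4 or M0 replicate 2 (-0.66 to -0.57, adjusted p 0.062 to 0.11). DNAJC8 lost its call without M4 replicate 3, 4 or 5 or M0 replicate 2 or 3 (-0.32 to -0.29, adjusted p 0.089 to 0.11). DNAJA2 lost its call without M4 replicate 1 or M0 replicate 4 (0.35 to 0.43, adjusted p 0.067 to 0.088). The 21 genes called in no stage were HSP90AB1, HSPA1A, HSPA2, HSPA9, HSPA12B, HSPA13, DNAJA3, DNAJB5, DNAJB14, DNAJC1, DNAJC2, DNAJC9, DNAJC10, DNAJC11, DNAJC13, DNAJC14, DNAJC16, DNAJC21, DNAJC24, DNAJC27 and DNAJC28.

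The small heat shock proteins went separate ways. HSPB6, abundant in smooth and striated muscle, fell in every stage. HSPB6 (ENSBTAG00000018598) had 14.3, 15.1, 18.9, 23.5 and 34.2 CPM in M0, 4.83, 11.1, 6.17, 3.78 and 2.79 in M1, and 3.48, 7.28, 5.05, 8.68 and 6.35 in M2. After these it had 11.2, 4.64, 2.17, 3.32 and 4.15 CPM in M3, 9.58, 4.205, 8.86, 2.27 and 1.70 in M4, and 5.08, 6.57, 7.46 and 5.94 in M4.1. All 24 lesion libraries lay below the lowest M0 library, with log2 fold changes of -1.87 ± 0.41 in M1, -1.78 ± 0.41 in M2, -2.01 ± 0.42 in M3, -2.04 ± 0.43 in M4 and -1.74 ± 0.44 in M4.1 (adjusted p 3.4e-04 to 0.0025, edgeR). HSPB2, known from muscle and next to CRYAB in ARS-UCD2.0, fell in M3 (-1.46 ± 0.44, adjusted p 0.0093) and M4 (-1.08 ± 0.42, adjusted p 0.040) and had -0.40 ± 0.40 in M1, -0.22 ± 0.39 in M2 and 0.02 ± 0.41 in M4.1. Its M4 call ended without M4 replicate 1, 2, 3 or 5 or M0 replicate 1, 4 or 5 (-1.097 to -0.84, adjusted p 0.057 to 0.099). HSPB7, another muscle member under the count filter, had 0 to 2.42 CPM in lesions, against 1.25 to 4.67 CPM in M0. Smooth muscle markers, CRYAB among them, were read beside these genes. Their list median log2 fold change ran from -2.19 in M4 to -0.79 in M4.1. Of 11 markers tested 8 in M1, 7 in M2, 9 in M3, 10 in M4 and 4 in M4.1 were lower, and SMTN was higher in each stage. The summed CPM were 314 to 698 in M1, 353 to 757 in M2, 361 to 538 in M3, 227 to 433 in M4 and 463 to 1069 in M4.1, against 670.1 to 1505 in M0. None of the 11 was at 0 in a whole group, and the part of muscle content in the fall of HSPB6 and HSPB2 was not tested.

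**Figure D4:**
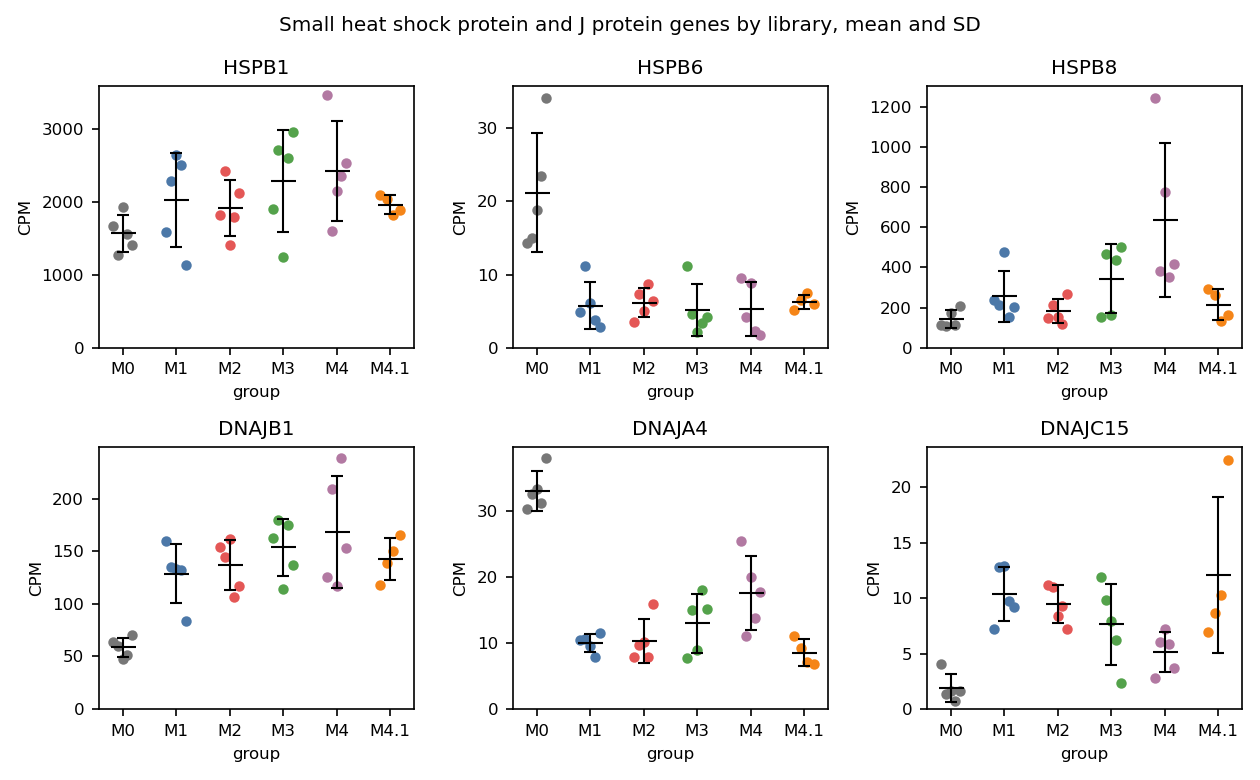
CPM of 3 small heat shock protein genes and 3 J protein genes in every library (points), with group means and SD (bars), in M0 and the 5 lesion stages. HSPB6 and DNAJA4 are below M0 and DNAJB1 is above M0 in all 24 lesion libraries, whereas HSPB8 spreads widest in M4, from 352 to 1248 CPM.

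HSPB8, which works with BAG3 to pass aggregates to autophagy, was called higher than M0 in the healing and chronic stages. HSPB8 (ENSBTAG00000001303) had 111, 106, 170.2, 111 and 209 CPM in M0, 235, 211, 477, 152 and 204 in M1, and 150.1, 214, 153, 118 and 267 in M2. It reached 152, 465, 161, 439 and 503 CPM in M3, 1248, 384, 777, 352 and 419.5 in M4, and 293, 263, 132 and 163 in M4.1. All 5 M4 libraries were above M0, while M1, M2, M3 and M4.1 each had libraries inside the M0 range. Log2 fold changes of HSPB8 were 0.85 ± 0.38 in M1, 0.35 ± 0.38 in M2, 1.28 ± 0.38 in M3, 2.17 ± 0.39 in M4 and 0.59 ± 0.40 in M4.1, called in M3 (adjusted p 0.0094) and M4 (adjusted p 6.6e-05, edgeR). M1 missed the threshold (adjusted p 0.071). It passed in the edgeR fit on M1 and M0 alone (0.85, adjusted p 0.032) and without M1 replicate 4 (0.99, adjusted p 0.044). M3 was not tested against M1. The 10 differentiating keratinocyte markers summed to 2799.6 to 54415 CPM in M1, 2806 to 71989 in M2, 12687 to 176008 in M3, 44947 to 222790.0 in M4 and 3461 to 30946 in M4.1, against 25204 to 41477 in M0, with LOR at 0 in M4.1. Their part in the level of HSPB8 was not tested. HSPB1, the epidermal small heat shock protein, averaged 1572 ± 254 CPM in M0, 2034 ± 645 CPM in M1, 1915 ± 383 CPM in M2, 2290.0 ± 705 CPM in M3, 2426 ± 685 CPM in M4 and 1966 ± 127 CPM in M4.1 (SD). It was called in M4 alone (0.63 ± 0.23, adjusted p 0.026), and the call ended without M0 replicate 2, 4 or 5 or M4 replicate 1 (0.46 to 0.60, adjusted p 0.057 to 0.11). It also ended with library totals alone, where the M4 value was 0.035 (adjusted p 0.87). In M3 HSPB1 had 0.54 (adjusted p 0.056). The M3 value passed without M0 replicate 3 (0.63, adjusted p 0.043) or M3 replicate 3 (0.68, adjusted p 0.016, edgeR). HSPB11 fell in M4 (-1.04 ± 0.24, adjusted p 8.2e-04) and M4.1 (-0.63 ± 0.24, adjusted p 0.040). Its M4.1 call ended without M4.1 replicate 1 or 3 or M0 replicate 1 or 2 (-0.60 to -0.40, adjusted p 0.068 to 0.17). HSPBP1 rose in M1 (1.09 ± 0.31), M2 (1.07 ± 0.31) and M4.1 (0.99 ± 0.33), and had 0.59 ± 0.32 in M3 and 0.76 ± 0.32 in M4. Its M4.1 call ended without M0 replicate 5 (0.78, adjusted p 0.058).

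Lesion stages were then set against each other. These tests used the fit of all groups, so M0 shared in the scaling and in the estimate of spread. In a test of any difference among the 5 stages, HSP90B1 (adjusted p 0.046) and HSPB8 (adjusted p 0.035) were called by edgeR, 2 of 58 genes, where 2.58% of all genes were. Limma-voom and an edgeR fit on the lesion libraries alone called neither, and DESeq2 called 8, these 2 among them. Over all genes limma-voom called 3, the fit on the lesion libraries alone 0 and DESeq2 887, against 268 in the main fit. In the chronic lesion with renewed activity against the chronic lesion (M4.1 vs M4), 3 of 58 were called, 1 higher and 2 lower, where 4.3% of all genes were called, 2.25% higher and 2.05% lower. HSP90B1 averaged 209 ± 51.6 CPM in M4.1 against 127 ± 24.2 CPM in M4 (log2 0.72 ± 0.17, adjusted p 0.029). DNAJA4 averaged 8.57 ± 2.02 CPM in M4.1 against 17.7 ± 5.60 CPM in M4 (log2 -1.04 ± 0.25, adjusted p 0.030), and HSPB8 213 ± 77.5 CPM against 636 ± 383 CPM (log2 -1.58 ± 0.42, adjusted p 0.035, all edgeR). HSPA5 had 0.77 ± 0.25 (adjusted p 0.068), DNAJC15 1.23 ± 0.38 (0.058), HSPD1 0.67 ± 0.24 (0.088) and HSPE1 0.55 ± 0.20 (0.093), none of them called. All 3 calls ended when certain single libraries were left out, and calls over all genes fell with them. Of 446 genes called with all libraries, 0 remained without M4 replicate 1 or M4.1 replicate 3. There were 5 without M4 replicate 5, 33 without M4.1 replicate 4 and 82 without M4 replicate 3. Without M4 replicate 2 or M4.1 replicate 2 the calls rose to 847 and 523. HSP90B1 lost its call without M4 replicate 1 or 5 or M4.1 replicate 3 or 4 (0.58 to 0.68, adjusted p 0.064 to 0.11). The call of DNAJA4 ended without M4 replicate 1, 3 or 5 or M4.1 replicate 3 or 4 (-1.04 to -0.88, adjusted p 0.058 to 0.10), and that of HSPB8 without M4 replicate 1, 3 or 5 or M4.1 replicate 3 or 4 (-1.70 to -1.18, adjusted p 0.057 to 0.13). HSPB8 also missed the threshold in limma-voom (-1.47, adjusted p 0.0501), and HSP90B1 in an edgeR fit on these 2 groups alone (0.73, adjusted p 0.051). Scaled by library totals alone, 18 genes were higher and 2 lower in M4.1, where 20.8% and 1.26% of all genes were. Cell type markers differed in the same comparison. Of the 9 hair follicle and sebaceous gland markers 6 were higher in M4.1 than in M4, among them KRT25 at 60.4 ± 70.2 CPM in M4.1 against 0.284 ± 0.203 CPM in M4 (SD). The endothelial markers PECAM1 (log2 0.96) and KDR (log2 0.94), 2 of 10, were higher too. So was 1 marker each of smooth muscle (LMOD1), fibroblasts (FBLN1) and leukocytes (JCHAIN), while 1 each of differentiating keratinocytes (DSG1), basal keratinocytes (KRT14) and skeletal muscle (CKM) was lower. The part of these differences in the 3 calls was not tested.

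In the chronic against the acute stage (M4 vs M2), HSPB8 averaged 636 ± 383 CPM in M4 and 180.4 ± 59.6 CPM in M2 (log2 1.82 ± 0.39, adjusted p 0.028, edgeR). DNAJC4, a J protein of which little is known, averaged 28.4 ± 8.10 CPM in M4 and 13.2 ± 4.49 CPM in M2 (log2 1.099 ± 0.27, adjusted p 0.034, edgeR), and is named because the count was small. These were the 2 calls among 58 genes, where 3.11% of all genes were called. Scaled by totals alone, 2 genes were higher and 16 lower in M4 (1.09% and 17.1% of all genes). The HSPB8 call ended without M2 replicate 1, 2, 3 or 4 or M4 replicate 1 or 3 (1.42 to 1.89, adjusted p 0.054 to 0.082). The DNAJC4 call ended without M2 replicate 1, 2 or 3 or M4 replicate 1, 3 or 5 (0.95 to 1.13, adjusted p 0.071 to 0.10). Over all genes, 323 were called with all libraries and 0 to 35 in these fits. Without M2 replicate 5 or M4 replicate 2 the calls rose to 900 and 785. HSPD1 (-0.66 ± 0.23, adjusted p 0.087), HSP90B1 (-0.47 ± 0.16, 0.088) and HSPE1 (-0.49 ± 0.19, 0.12) were not called. No chaperone gene was called by edgeR, DESeq2 or limma-voom between neighbouring stages, M2 vs M1, M3 vs M2 or M4 vs M3, where edgeR called 0.0% of all genes. At an unadjusted p under 0.05, edgeR had 3 of 58 in M2 vs M1, 5 in M3 vs M2 and 3 in M4 vs M3.

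**Figure D5:**
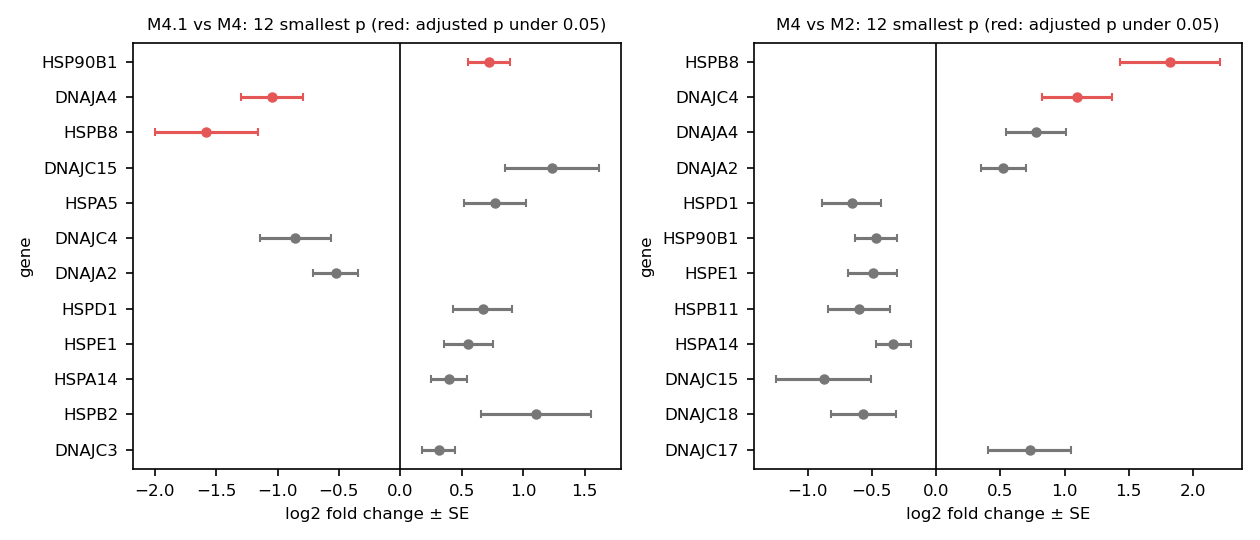
Log2 fold changes ± SE of the 12 genes with the smallest p in M4.1 vs M4 (left) and M4 vs M2 (right), ordered by p, with adjusted p under 0.05 in red. HSP90B1 is higher and DNAJA4 and HSPB8 are lower in M4.1 than in M4, and HSPB8 and DNAJC4 are higher in M4 than in M2.

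The partners of these chaperones were read from lists of textbook members, to be set beside the shares of all genes given above. The lists here and below were read with the TMM factors only, and their calls under library totals alone were not tested. Chaperone calls of similar size were lost under that scaling, such as DNAJC7 in M4 (log2 0.72 with the TMM factors, 0.16 without). All 8 tested subunits of TRiC, the cytosolic chaperonin that folds actin and tubulin, rose in each stage (list median log2 0.65 to 0.95), with CCT5 at 0.94 to 1.12, CCT7 at 0.67 to 0.92 and CCT4 at 0.64 to 0.88 (adjusted p 4.6e-07 to 4.5e-05, edgeR). Of the 6 subunits of prefoldin, which hands clients to TRiC, 4 rose in each stage, among them VBP1 at 0.66 to 0.95, PFDN4 at 0.52 to 0.79 and PFDN1 at 0.41 to 0.78. Of 16 HSP90 co-chaperones 9 in M1, 7 in M2, 5 in M3, 6 in M4 and 7 in M4.1 rose and 2 in M1, 2 in M2, 1 in M3, 1 in M4 and 1 in M4.1 fell. STIP1, which bridges HSP70 and HSP90, rose by 0.74 to 0.98 (adjusted p 1.4e-05 to 4.3e-04) and CHORDC1, another co-chaperone, by 0.95 to 1.46, while FKBP5, the glucocorticoid-induced immunophilin, fell (log2 -2.27 to -1.49, adjusted p 2.7e-05 to 0.0017, edgeR). Of 10 HSP70 exchange and docking factors 4 in M1, 3 in M2, 3 in M3, 3 in M4 and 3 in M4.1 rose and none fell. Among them the partner of HSPB8, BAG3, rose by 1.05 to 1.202 (adjusted p 3.9e-09 to 9.4e-08), and the ubiquitin ligase STUB1 by 0.53 to 1.32 (adjusted p 2.6e-06 to 0.034, edgeR). BAG1 had 0.44 to 0.65 and passed in all stages but M4.1 (adjusted p 0.054).

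Of 18 genes of folding and the unfolded protein response in the endoplasmic reticulum 10 in M1, 9 in M2, 10 in M3, 7 in M4 and 10 in M4.1 rose and 1 in M1, 1 in M2, 1 in M3, 2 in M4 and 0 in M4.1 fell (list median log2 0.33 to 0.76). The secreted stress factor MANF rose by 1.14 to 1.82 (adjusted p 1.2e-07 to 4.2e-05), protein disulfide isomerase P4HB by 1.05 to 1.22 and the translocon subunit SEC61B by 0.67 to 0.86 (adjusted p 8.4e-07 to 2.5e-05, edgeR). Of 7 regulators of the heat shock transcription factors, 2 rose in each stage and 3 in M1, 3 in M2, 3 in M3, 4 in M4 and 3 in M4.1 fell. HSF1, the main activator of heat shock genes, rose by 0.58 to 0.72 (adjusted p 2.6e-06 to 1.2e-04), its binding protein HSBP1 by 0.66 to 0.94, and the deacetylase SIRT1 fell (log2 -1.11 to -0.66, adjusted p 1.0e-05 to 0.0024, edgeR). In mitochondria, 6 proteostasis genes had 1 in M1, 2 in M2, 1 in M3, 1 in M4 and 1 in M4.1 higher and 1 lower in each stage: the protease YME1L1 rose by 0.83 to 1.15 and the unfoldase CLPX fell (log2 -1.197 to -0.73, adjusted p 3.7e-05 to 0.0064, edgeR). AFG3L2, another inner membrane protease, had 0.22 to 0.39 and passed in M2 alone (adjusted p 0.010).

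Immediate early genes respond to stress and handling of tissue, and 13 of them were read beside the chaperones. They summed to 1541 to 2547 CPM in lesions, against 1246 to 1544 CPM in M0, and 5 in M1, 4 in M2, 4 in M3, 4 in M4 and 4 in M4.1 rose and 0 in M1, 0 in M2, 1 in M3, 1 in M4 and 0 in M4.1 fell. FOS rose by 2.34 to 2.996 (adjusted p 3.2e-06 to 1.2e-04), IER3 by 1.62 to 1.79 and JUNB by 1.42 to 1.67 (adjusted p 4.6e-08 to 1.5e-06, edgeR). Most of the 13 were not called in a given stage, and the list median log2 fold change ran from 0.095 in M4.1 to 0.53 in M1. The part of these genes in the results above was not tested.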

How the data were processed

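Skin RNA of 29 libraries was read as 3′ tags. Per the submitters' processing notes, the genome build was ARS-UCD1.2 and the tools named include RSEM 1.3.1, the aligner STAR, edgeR, cutadapt 2.8 and FastQC 0.11.7. The authors deposited 5 tables, each with whole-number counts per gene for M0 and 1 lesion stage, with signal columns (normalised values of the authors) and p-values per the file headers. Only the deposited counts were used. The M0 counts were identical in the 5 tables. Genes listed in all tables (10629) were joined, and 569 of them have no symbol. Which genes the authors dropped before deposit is not given in the sources used here.

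One model over 6 groups was fitted in edgeR 4.0.16 (R 4.3.3) with filterByExpr, TMM factors (0.631 to 1.29) and the quasi-likelihood F-test, with Benjamini-Hochberg adjustment over 10371 genes. The filter left out 258. No label names animals, so p-values measure the spread between libraries. Counts of paralogs may share reads. On simulated counts for M1 vs M0, 44 of 100 genes changed 2-fold and 91 of 98 changed 4-fold were recovered. For M4 vs M2 the simulation recovered 35 of 100 and 92 of 100. The simulated M1 vs M0 had 139 genes called, against 4459 in the data, so these shares do not give the power of the real comparisons. Alternatives were RLE scaling, library totals alone, other count filters, a robust fit, fits on the compared groups, DESeq2 1.42.0, limma 3.58.1, a replicate block, and each library left out. Scaling by library totals alone was added after the data were seen. Genes named are textbook members, up to 3 per family called alike in all 5 stages with the largest mean change, up to 3 per family differing among lesions, and 3 per partner list with the smallest p. Genes outside that rule (HSPA4, HSPA12B, HSPA13, HSPA14, HSPB2, HSPB11, HSPBP1, further DNAJ genes and single cell type markers) were named after their values were seen. Members and lists were chosen with earlier results of these data known.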

Additional observations from a re-analysis of the deposited data

Results flagged for a closer look

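In 6 of 168 groups of libraries examined over the named genes, 1 library stood apart from the others by more than Dixon's 95% limit, which chance alone gives in about 1 of 20 groups. HSPA8 in M1 was lowest in replicate 4, at 1502 CPM with the next library at 1969.9 CPM, and still above every M0 library. DNAJB1 in M1 was lowest in replicate 5, at 83.6 CPM with the next at 132 CPM, also above M0. DNAJB9 in M2 was lowest in replicate 1, at 12.8 CPM with the next at 21.5 CPM. DNAJB4 in M3 was lowest in replicate 5, at 1.38 CPM with the next at 2.66 CPM. HSPB7, at low counts throughout, was highest in M0 replicate 4, at 4.67 CPM with the next at 1.79 CPM, and in M4.1 replicate 1, at 1.27 CPM with the next at 0.424 CPM.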

How the results depend on the processing

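Leaving out 1 library, given below, moved the count of genes lower in M4.1 against M0 by more than 1.5 times in 2 fits. Under the other alternatives, counts of chaperone genes called against M0 held within 1.5 times, with exceptions under library totals alone. These were 11 lower in M1, 13 higher and 13 lower in M3, and 6 higher and 19 lower in M4. That scaling also gave 18 higher in M4.1 vs M4, 16 lower in M4 vs M2 and 4 among lesion stages, and in M4 it turned DNAJC3 (-0.19), HSP90AA1 (-0.10) and HSP90B1 (-0.10) below M0. It leaves out the TMM factors, which shifts the median of all genes. Correlations of same-numbered libraries ran from -0.36 to 0.41. In no comparison were all over 0.1, and in none did every library match best with its own number. In M3 vs M2, 3 of 5 pairs were over 0.1. Partial pairing by animal or farm would fail that bar as well, so pairing cannot be told from these values. The numbers are used here only to name libraries. With a replicate block, M4.1 vs M4 had 0 higher and 0 lower, M4 vs M2 had 1 higher and 0 chaperone genes differed among lesion stages. Over all genes that block left 46, 62 and 1 called. On the compared groups alone, M4.1 vs M4 had 0 higher and 0 differed among lesions, where 428 and 0 of all genes were called. DESeq2 gave 3 higher in M4.1 vs M4, 4 higher and 1 lower in M4 vs M2 and 8 among lesions, and limma-voom 1 lower in M4.1 vs M4 and 0 among lesions. Over all genes DESeq2 called 963, 883 and 887 in these 3 tests. Limma-voom called 168 in M4.1 vs M4 and 3 among lesions. The cause was not tested. Leaving out 1 library gave, against M0, 20 to 21 higher and 4 to 7 lower in M1, 20 to 21 and 5 to 7 in M2, 19 to 23 and 6 to 7 in M3, 19 to 23 and 7 to 8 in M4, and 19 to 20 and 4 to 9 in M4.1, where the lowest counts came without M4.1 replicate 3 (4) or 4 (5). Among lesions it gave 0 to 7 differing, 0 to 5 higher and 0 to 4 lower in M4.1 vs M4, and 0 to 5 higher and 0 to 2 lower in M4 vs M2. Over all genes the calls in these fits were 0 to 658 among lesions, 0 to 847 in M4.1 vs M4 and 0 to 900 in M4 vs M2. Neighbouring stages stayed at 0. Genes near 1 CPM, such as HSPB7, are limited by depth.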
